A study of Mus musculus with 20 samples.

Results

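The Notch pathway genes described here are 10 genes chosen by name: the receptors Notch1, Notch2 and Notch3, the ligands Jag1 and Dll4, the receptor-modifying glycosyltransferase Lfng, and the target genes Hes1, Hey1, Hey2 and Heyl. All 10 were found once each among the 55487 gene identifiers of the count data. Expression was measured in granulosa cells (GCs), which surround the oocyte inside the ovarian follicle and make the estradiol of the follicle. The samples came from 20 young adult female Dummerstorf mice, with 5 mice in each of 4 groups. These groups were ctrl mice in estrus, FL1 mice in estrus, ctrl mice in diestrus and FL1 mice in diestrus. FL1 is a line selected over many generations for litter size and litter weight and later for breeding value, whereas the ctrl line descends from the same founders without selection. The mice received no treatment, and the stage of the cycle was read from vaginal smears. The mural GCs of several of the largest follicles of a mouse were pooled into 1 sample, with the oocyte and its cumulus cells left behind.

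Notch receptors are membrane proteins that are activated by ligands of the Jagged and Delta-like families on a neighbouring cell. Ligand binding allows ADAM proteases and then gamma-secretase to cut the receptor, and the freed intracellular domain joins the DNA-binding protein RBPJ and a Mastermind coactivator at target genes. Hes and Hey genes, which encode basic helix-loop-helix repressors, are the classic targets. In the ovary the pathway is known for contacts between the oocyte and GCs, for follicle assembly and for the vessels around the follicle.

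Libraries were prepared with QuantSeq, which reads the 3′ end of polyadenylated transcripts, so counts do not grow with transcript length and levels can be set side by side between genes. Per mouse between 5446576 and 8257041 reads were counted on genes. Levels are given as CPM, the reads of a gene scaled by the TMM-adjusted library size, with the standard deviation (SD) over mice. The median correlation of a mouse with the other mice of its group (Pearson's r of log2 CPM across genes) was between 0.828 and 0.878 and was lowest in replicate 1 of the FL1 mice in diestrus, without which 728 instead of 473 genes were called for the stage over both lines and 178 instead of 29 for the stage in FL1 mice. Replicate 2 of the FL1 mice in estrus had the lowest summed GC markers (5727 CPM) and the highest summed theca markers (6761 CPM) of all mice. Of that theca sum Cyp11a1, which GCs express as well, made up 6194 CPM. The GC markers Fshr, Foxl2 and Inha were present in every mouse, and theca markers were found as well. Of these Insl3 was at 0 in 3 of the 4 groups and at a mean of 0.0363 CPM in ctrl mice in diestrus, whereas the group means were between 10.6 and 95.4 CPM for Cyp17a1, between 58.3 and 88.7 CPM for Ptch1 and between 300.7 and 2674 CPM for Cyp11a1. Differences were tested with edgeR's quasi-likelihood test over all genes that passed a filter on low counts, and genes with an adjusted p of at most 0.05 were called differentially expressed.

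Hey2 was the single gene of the 10 that was called, and its promoter is shown first for that reason. The stretch covers the 250 bases before the RefSeq start of the gene, at chr10:30842784-30843033 on the minus strand of GRCm38.p6. The promoter of Lfng, at chr5:140607091-140607340 on the plus strand, is set beside it because these were the 2 of the 7 members with an entry in the RefSeq promoter table that held the core motif of RBPJ. Hes1, Hey1 and Heyl had no entry. Capitals mark the motif, TGGGAA or its complement TTCCCA.
Hey2: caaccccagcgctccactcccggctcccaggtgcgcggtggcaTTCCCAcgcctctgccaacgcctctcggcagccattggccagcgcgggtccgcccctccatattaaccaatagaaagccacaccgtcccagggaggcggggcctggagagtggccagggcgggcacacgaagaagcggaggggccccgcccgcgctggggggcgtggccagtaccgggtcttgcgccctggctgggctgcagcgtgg
Lfng: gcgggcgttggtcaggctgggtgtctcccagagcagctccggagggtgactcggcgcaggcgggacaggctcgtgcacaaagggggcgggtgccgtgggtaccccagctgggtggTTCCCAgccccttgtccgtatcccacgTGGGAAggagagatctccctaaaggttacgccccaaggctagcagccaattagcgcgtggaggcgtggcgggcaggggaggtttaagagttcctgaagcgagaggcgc
In the Hey2 promoter the motif begins 207 bases before the start. In the Lfng promoter it occurs on both strands, with the farther copy beginning 135 bases before the start, and the nearer copy shares bases with an E box, CACGTG. Searched on both strands, TGGGAA was present in 21.6% of all 32851 promoters of the same length, and 2 of 7 members held it. CACGTG, one of the motifs that Hes and Hey proteins are known to bind, was present in 6.02% of all promoters and in Lfng alone among the 7 members. CACGCG, another such motif, was present in 7.62% of all promoters and in 4 of the 7 members, Dll4, Jag1, Notch2 and Lfng. These matches describe letters and are not measured binding sites.

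Across all 20 mice the target genes Hey2 and Hes1 had the highest means of the members. Hey2 led with 113.1 ± 41.7 CPM (SD, n = 20), followed by Hes1 with 59.6 ± 31.6, Notch2 with 53.4 ± 16.8, Heyl with 46.1 ± 19.3 and Jag1 with 28.8 ± 19.3 CPM. Hey1 with 4.97 ± 3.43, Notch1 with 4.64 ± 3.07 and Notch3 with 2.43 ± 3.61 CPM were weakly expressed. Dll4 with 0.943 ± 1.92 and Lfng with 0.503 ± 0.736 CPM were lowest. Hey2 was the highest member in 18 of the 20 mice and stood above Hes1 in 19 of them. The order of Hes1, Notch2 and Heyl was not separated by their spread, since Hes1 exceeded Notch2 in 13 mice and Notch2 exceeded Heyl in 12 mice. Jag1 exceeded Hey1 in 18 mice, whereas Hey1 exceeded Notch1 in 9 mice, so that this pair was not ordered either.

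**Figure D1:**
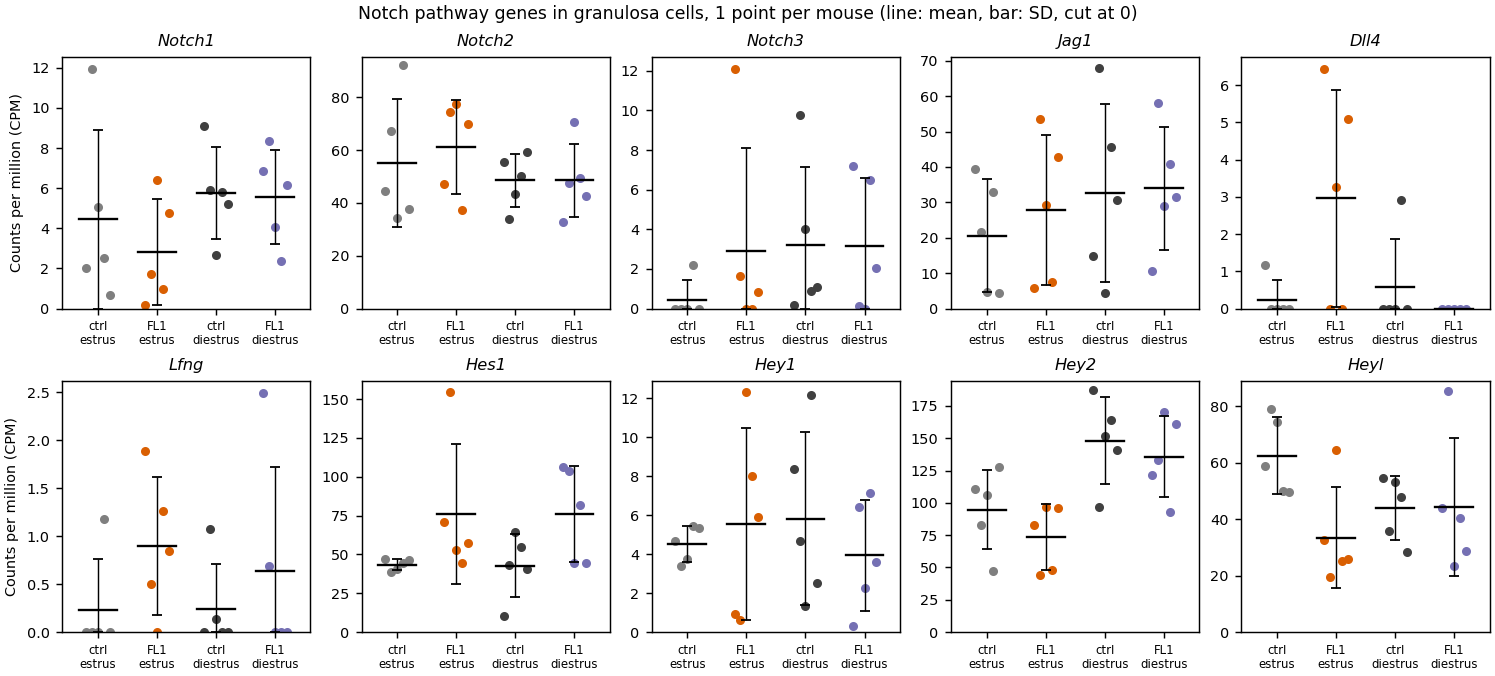
Level of each of the 10 members in CPM (y axis, linear and starting at 0, scaled per gene) in the 4 groups (x axis), with 1 point per mouse, the mean as a line and the SD as a bar that is cut at 0. Hey2 is higher in both diestrus groups (means 148.1 and 135.8 CPM) than in both estrus groups (94.8 and 73.7 CPM), and Dll4 is at 0 in all 5 FL1 mice in diestrus.

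The line effect addresses how GCs of FL1 mice differ from those of ctrl mice. Of all genes tested, 0.769% were called between the lines in estrus, 0.248% in diestrus and 1.21% over both stages with the stage in the model. None of the members was called in these comparisons, with 7 members tested in estrus and 8 in the others. Before adjustment 2 members had a p under 0.05 in estrus, 1 in diestrus and 1 over both stages, where 10.7%, 5.56% and 11% of all genes tested had such a p. DESeq2 called 0 members in each. Over both stages 4 members had a positive and 4 a negative log2 fold change. Their median was -0.03, beside 0.01 over all genes tested.

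The stage effect addresses how GCs change between estrus and diestrus. Here 1.36% of all genes tested were called in ctrl mice, 0.221% in FL1 mice and 3.17% over both lines with the line in the model. Of the members 0 of 7 were called in ctrl mice, 0 of 8 in FL1 mice and 1 of 8, Hey2, over both lines. In each of the comparisons within a line 1 member had an unadjusted p under 0.05, which was Hey2 both times, beside 11.8% of all genes tested in ctrl mice and 9.48% in FL1 mice, and DESeq2 called 0. Over both lines 4 members had a positive and 4 a negative log2 fold change, with a median of 0.23 beside 0.02 over all genes tested. For the interaction of line and stage, 0% of all genes tested were called with edgeR, 710 genes had an unadjusted p under 0.05 and DESeq2 called 1 gene. No member had an unadjusted p under 0.05 for the interaction, and DESeq2 called 0 members. The line comparisons share their mice with the stage comparisons, so they are not independent of each other.

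Hey2, a repressor known from heart and vessel development, was stronger expressed in diestrus than in estrus. The gene lies at chr10:30832359-30842801 on the minus strand (GENCODE M21, GRCm38). In ctrl mice in estrus its levels were 110.5, 82.6, 106.02, 47.6 and 127.5 CPM, and in ctrl mice in diestrus they were 187.3, 96.6, 151.7, 164.3 and 140.6 CPM. In FL1 mice in estrus they were 82.7, 44.2, 97.1, 48.1 and 96.1 CPM, and in FL1 mice in diestrus 121.5, 133.4, 170.1, 93.2 and 160.9 CPM. Within each line 4 of the 5 mice in diestrus stood above the highest mouse in estrus, while the lowest mouse in diestrus fell inside the range of estrus. Taken over lines, 7 of the 10 mice in diestrus stood above every mouse in estrus. Counts behind these levels were between 323 and 1137 reads per mouse. Over both lines the level was 1.70-fold higher in diestrus (95% interval 1.31 to 2.20), a log2 fold change of 0.76 ± 0.18 (SE) with an adjusted p of 0.0171 from edgeR's quasi-likelihood test. Across the other settings and across fits without each mouse in turn its adjusted p was between 0.0041 and 0.0447.

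Within single lines the difference in Hey2 was of a similar size but did not pass the threshold over all genes. In ctrl mice the log2 fold change was 0.64 ± 0.25 with an adjusted p of 0.289, and in FL1 mice it was 0.87 ± 0.26 with an adjusted p of 0.195 (edgeR). The interaction of 0.24 ± 0.37 with a 95% interval from -0.52 to 1.00 did not separate the lines. Between the lines Hey2 differed by a log2 fold change of -0.24 over both stages (95% interval -0.62 to 0.13, adjusted p of 0.731, edgeR), of -0.37 in estrus and of -0.12 in diestrus.

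The markers of other cells moved with the stage as well. Of the 10 GC markers 7 had a positive stage effect over both lines, and Fshr, Fst, Inhba and Cyp19a1 were called higher in diestrus. All 10 markers of pericytes and smooth muscle and all 6 stroma markers had a negative stage effect, of which Col3a1 was called. Of the 6 theca markers tested 3 had a positive and 3 a negative stage effect, and the 2 that were called went in opposite directions. Cyp17a1, an enzyme of androgen synthesis, was higher in diestrus (adjusted p of 0.0029, edgeR), with means of 10.6 and 95.4 CPM in ctrl mice and of 11.2 and 45.3 CPM in FL1 mice in estrus and diestrus. Cyp11a1, the enzyme that starts steroid synthesis from cholesterol and which GCs express as well, had a stage effect of -1.51 on the log2 scale (adjusted p of 0.0122, edgeR). The summed level of the GC markers was between 5727 and 10027 CPM in estrus and between 8935 and 15929 CPM in diestrus. Most of this sum came from Inha and Inhba, with group means from 4125 to 5670 CPM and from 723 to 3006 CPM. The sum of the stroma markers was between 562.2 and 1708 CPM in estrus and between 134.8 and 1155 CPM in diestrus. By group means most of the theca sum came from Cyp11a1 and Aldh1a1. Over the 20 mice Pearson's r of Hey2 was 0.73 with the summed GC markers (Spearman's rho 0.74) and was negative with the sums of the 8 other lists, from -0.68 for theca (rho -0.62) to -0.19 for cumulus expansion. After removal of the group means r was 0.54 with the GC markers and between -0.52 (oocyte) and 0.26 (endothelium) with the others, given as a description from the same libraries. The part of cell composition in the difference of Hey2 was not tested. In such bulk samples fewer cells of a type and less RNA per cell cannot be told apart.

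**Figure D2:**
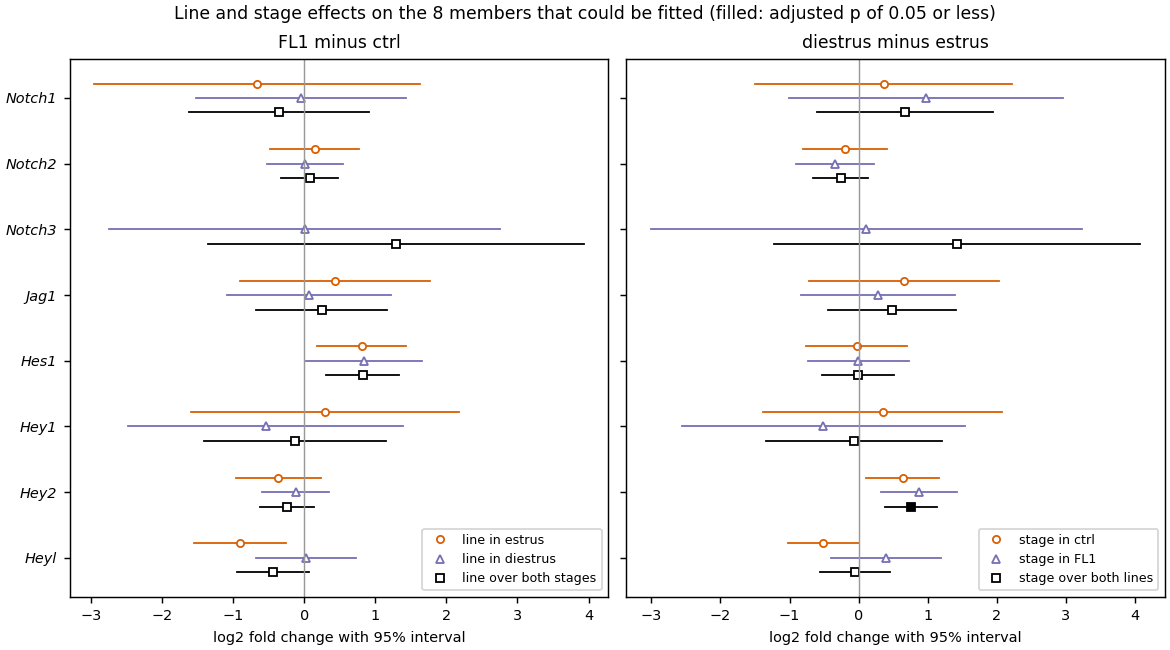
Log2 fold changes (x axes) with 95% intervals for the 8 members that could be fitted, as FL1 minus ctrl (left) and diestrus minus estrus (right), within 1 stage or line (coloured) and over both (black). Filled symbols mark an adjusted p of 0.05 or less, which applied to Hey2 for the stage over both lines (0.76), and Notch3 was not fitted for the line in estrus or the stage in ctrl mice.

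Hes1, the target that is read most often as a sign of Notch activity, had higher levels in FL1 mice than in ctrl mice but was not called. The gene lies at chr16:30064384-30067796 on the plus strand (GENCODE M21, GRCm38). In estrus its levels in ctrl mice were 46.8, 38.8, 40.8, 44.2 and 46.4 CPM, and in FL1 mice they were 70.9, 154.6, 52.8, 44.4 and 57.5 CPM. Here 4 of the 5 FL1 mice stood above all ctrl mice, and the ctrl mice lay close together with an SD of 3.51 CPM. In diestrus the levels in ctrl mice were 10.5, 43.0, 64.7, 54.5 and 40.9 CPM, and in FL1 mice 106.5, 103.8, 44.2, 81.6 and 44.2 CPM. In this stage 3 of the 5 FL1 mice stood above all ctrl mice, and the groups overlapped. The log2 fold change was 0.81 ± 0.30 in estrus (adjusted p of 0.278), 0.84 ± 0.39 in diestrus (adjusted p of 0.879) and 0.82 ± 0.25 over both stages (adjusted p of 0.121, all edgeR). The last corresponds to a 1.77-fold higher level with a 95% interval from 1.23 to 2.53, and its unadjusted p was 0.0030. Without a filter on low counts the same contrast was called at an adjusted p of 0.0428. Replicate 2 of the FL1 mice in estrus was far above the others, and without it the log2 fold change was 0.38 in estrus and 0.62 over both stages. It is the mouse with the lowest GC and the highest theca marker sum, the latter mostly from Cyp11a1, which GCs express as well. Between the stages the log2 fold change of Hes1 over both lines was -0.01 with a 95% interval from -0.53 to 0.51. The interaction was 0.02 (95% interval -1.03 to 1.07).

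Markers of other cells differed between the lines too. All 8 macrophage and leukocyte markers had a positive line effect over both stages, of which Lyz2 was called, and their sum was between 7.67 and 63.0 CPM in ctrl mice and between 12.3 and 117.2 CPM in FL1 mice. All 11 endothelial markers tested, all 6 stroma markers, all 6 oocyte markers and the 3 red cell markers tested had a positive line effect without a call. Of the 6 theca markers tested 3 had a positive and 3 a negative line effect with a median of -0.01, and Cyp11a1 was called higher in FL1 mice. Over the 20 mice Pearson's r of Hes1 was 0.56 with the summed theca markers (Spearman's rho 0.33), 0.55 with the red cell markers (rho 0.38), 0.52 with the macrophage and leukocyte markers (rho 0.50), 0.52 with the stroma markers (rho 0.30) and -0.39 with the GC markers (rho -0.17), again as a description. Without the 2 mice farthest from the median of each sum, these r were 0.44, 0.03, 0.36, 0.19 and -0.49 in the same order. After removal of the group means they were 0.43, 0.39, 0.27, 0.55 and -0.45. The part of other cells in the Hes1 difference was not tested.

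Heyl, a Hey relative with a known place in vessel wall cells, had lower levels in FL1 mice in estrus without being called. The gene lies at chr4:123233556-123249875 on the plus strand (GENCODE M21, GRCm38). Its levels were 58.7, 78.9, 74.6, 50.1 and 49.8 CPM in ctrl mice in estrus and 32.6, 19.5, 64.4, 25.1 and 25.9 CPM in FL1 mice in estrus. In diestrus they were 54.6, 35.9, 53.2, 47.8 and 28.5 CPM in ctrl mice and 44.1, 85.6, 23.5, 40.4 and 28.7 CPM in FL1 mice. In estrus 4 of the 5 FL1 mice stood below all ctrl mice and the fifth, replicate 3, stood among them, whereas in diestrus the groups overlapped widely. The log2 fold change in estrus was -0.90 ± 0.31 with an unadjusted p of 0.0090 and an adjusted p of 0.227 (edgeR). Over the 10 fits without 1 mouse it ranged from -1.26, without FL1 replicate 3, to -0.75. The adjusted p of these fits was between 0.0437, without FL1 replicate 3, and 0.451 (edgeR), and 1 of the 10 called Heyl. In diestrus the log2 fold change was 0.02 with a 95% interval from -0.67 to 0.72. The interaction of 0.92 ± 0.47 had an unadjusted p of 0.0603 and an adjusted p of 1.000 (edgeR), so a difference between the stages in the line effect was not shown. Within lines the stage effect on Heyl was -0.51 in ctrl mice (adjusted p of 0.436) and 0.40 in FL1 mice (adjusted p of 0.840, edgeR). Over fits without 1 mouse it was between -0.60 and -0.38 in ctrl mice and between 0.016 and 0.77 in FL1 mice. The pericyte and smooth muscle markers, summed, were between 264.9 and 863.7 CPM in ctrl mice in estrus and between 479.3 and 1208 CPM in FL1 mice in estrus. These ranges overlapped.

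Hey1, the remaining target, was low and variable. Its group means were 4.53 ± 0.919 CPM in ctrl mice in estrus, 5.56 ± 4.93 in FL1 mice in estrus, 5.82 ± 4.45 in ctrl mice in diestrus and 3.95 ± 2.86 CPM in FL1 mice in diestrus (SD, n = 5 each). The ctrl mice in estrus lay within 3.41 to 5.45 CPM, whereas FL1 mice in estrus ranged from 0.624 to 12.3, ctrl mice in diestrus from 1.33 to 12.2 and FL1 mice in diestrus from 0.312 to 7.16 CPM. Counts were as low as 2 reads in 1 mouse. Between lines over both stages the 95% interval of the log2 fold change was -1.40 to 1.14, and between stages over both lines it was -1.34 to 1.21. Differences inside these wide intervals could not be resolved for this gene.

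Notch2 was the most strongly expressed receptor in these cells. Its levels had medians of 44.6 CPM in ctrl mice in estrus (34.1 to 92.2), 69.9 in FL1 mice in estrus (37.3 to 77.5), 50.3 in ctrl mice in diestrus (33.9 to 59.4) and 47.4 CPM in FL1 mice in diestrus (32.9 to 70.6). All 4 groups overlapped. Its log2 fold change was 0.08 between lines (95% interval -0.32 to 0.48) and -0.26 between stages (-0.66 to 0.14), the narrowest intervals among the receptors. Notch1 had means of 4.44 ± 4.48 CPM in ctrl mice in estrus, 2.81 ± 2.65 in FL1 mice in estrus, 5.74 ± 2.29 in ctrl mice in diestrus and 5.56 ± 2.36 CPM in FL1 mice in diestrus. It differed by a log2 fold change of -0.35 between lines (95% interval -1.62 to 0.91) and of 0.67 between stages (-0.60 to 1.94), neither beyond the spread between mice. A transcript on the opposite strand, Gm13568, overlaps Notch1 and matches part of its last 500 bases, and the strand setting of the counting is not given in the sources used here, so reads of the 2 genes cannot be told apart.

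Notch3, a receptor known from vascular smooth muscle, was found in scattered mice. In ctrl mice in estrus 4 of 5 mice were at 0 and replicate 4 was at 2.21 CPM (15 reads). In FL1 mice in estrus the levels were 12.1, 1.62, 0, 0 and 0.848 CPM, in ctrl mice in diestrus 0.178, 9.77, 4.003, 0.909 and 1.07 CPM, and in FL1 mice in diestrus 7.17, 0.137, 0, 6.48 and 2.05 CPM. The highest mice of the last 3 groups lay between 7.17 and 12.1 CPM beside mice at or near 0, so no group was uniform. A mouse at 0 counts allowed a level of up to between 0.343 and 0.545 CPM, the worth of 3 counts per library, and this covers counting error only. The gene failed the filter for the line in estrus and the stage in ctrl mice. There, two-sided exact permutation tests of the mean log2 CPM gave p = 0.405 for the line and p = 0.0952 for the stage. Where it could be fitted over both stages the log2 fold change was 1.29 between lines (95% interval -1.35 to 3.93) and over both lines 1.43 between stages (-1.22 to 4.07). An antisense gene, Gm17276, overlaps Notch3.

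Of the ligands, Jag1 was clearly expressed but with a wide spread between mice of every group. Its levels were 39.3, 21.7, 4.69, 33.0 and 4.33 CPM in ctrl mice in estrus and 5.81, 53.5, 29.3, 7.58 and 42.7 CPM in FL1 mice in estrus. In ctrl mice in diestrus they were 14.99, 67.9, 4.27, 45.6 and 30.6 CPM, and in FL1 mice in diestrus 10.6, 58.1, 29.0, 40.7 and 31.4 CPM. Every group held mice at or below 10.6 CPM and mice at or above 39.3 CPM, so the groups covered nearly the same range. The lowest Jag1 count in any mouse was 25 reads. The log2 fold change was 0.24 ± 0.45 between lines (95% interval -0.68 to 1.17) and 0.48 ± 0.45 between stages (-0.45 to 1.40).

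Jag1 is known as a ligand that oocytes present to GCs, and its levels were in general higher in mice with more reads of oocyte markers. The 6 oocyte markers were detected in all groups although the oocyte had been left behind, with a sum between 47.4 and 539.5 CPM over all mice. In ctrl mice in diestrus the mouse with the lowest sum (47.4 CPM) had the lowest Jag1 level (4.27 CPM), and the mouse with the highest sum (386.8 CPM) had the highest (67.9 CPM). In FL1 mice in estrus the mouse with the lowest sum (169.7 CPM) again had the lowest Jag1 level (5.81 CPM), and the mouse with the highest sum (482.5 CPM) had the highest (53.5 CPM). In the other groups the extremes did not all coincide. In ctrl mice in estrus the mouse with the highest sum (512.2 CPM) had a Jag1 level of 33.0 CPM, below the highest of 39.3 CPM at a sum of 147.8 CPM. In FL1 mice in diestrus the mouse with the lowest sum (62.9 CPM) had 31.4 CPM of Jag1 and the mouse with the highest sum (539.5 CPM) had 40.7 CPM, within the range of that group. Over the 20 mice Pearson's r of Jag1 with the oocyte sum on log2 scales was 0.69 and Spearman's rho 0.66. It was 0.73 after removal of the group means and 0.55 without the 2 mice farthest from the median sum. Single oocyte markers had an r with Jag1 between 0.42 (Dppa3) and 0.76 (Ooep). Among the other members r with the oocyte sum was between -0.47 (Hey2) and 0.56 (Notch2, rho 0.54). For Notch2 it was 0.56 after removal of the group means and 0.53 without the same 2 mice. These are descriptions that were chosen after the values had been seen, from 72 pairs of 8 members and 9 marker lists, and both values of a pair come from the same library. The part of oocyte RNA in the Jag1 levels was not tested.

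Dll4, a ligand known from the tips of growing vessels, was at 0 in all 5 FL1 mice in diestrus and in 4 of the 5 mice of both ctrl groups. In FL1 mice in estrus it was at 6.43, 0, 3.27, 0 and 5.09 CPM, from 41, 0, 21, 0 and 30 reads. Replicate 1 of the ctrl mice in estrus had 1.17 CPM (8 reads), and replicate 4 of the ctrl mice in diestrus had 2.91 CPM (16 reads). The mean of FL1 mice in estrus was at least 5.78-fold higher than the 3 counts per library that FL1 mice in diestrus allow. This difference rested on 3 mice, and the two-sided exact permutation test gave p = 0.167. With all other mice of both groups at 0, this is the smallest p the test could give, so it could not decide the question. For the line in estrus, where 1 ctrl mouse had reads as well, the two-sided exact permutation test also gave p = 0.167. An opposite-strand transcript, Gm14207, overlaps Dll4.

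Lfng, which adds sugars to Notch and so sets which ligands activate it, was near the limit of detection. Its highest level in any mouse was 2.49 CPM (16 reads, FL1 in diestrus, replicate 1), and 11 of the 20 mice were at 0. FL1 mice in estrus had reads in 4 of 5 mice, at 1.88, 0.499, 0, 1.26 and 0.848 CPM, against 1 of 5 ctrl mice in estrus at 1.18 CPM. The two-sided exact permutation test of that contrast gave p = 0.127. In all 10 exact tests were made on Notch3, Dll4 and Lfng, with p between 0.0952 and 1, where the smallest p that 5 against 5 mice without ties can give is 0.00794. Mice tied at 0 raise this limit, which for Dll4 between the stages in FL1 mice was 0.167. Smaller differences in Dll4 and Lfng were not detectable at this depth.

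The endothelial markers, which Dll4 often follows, were present at low levels in all groups. Their sum over 12 genes was between 55.7 and 126.2 CPM in ctrl mice in estrus, 62.3 and 172.0 in FL1 mice in estrus, 42.8 and 81.8 in ctrl mice in diestrus and 53.6 and 217.7 CPM in FL1 mice in diestrus. FL1 mice in diestrus, in which Dll4 was at 0, included the mouse with the highest endothelial sum. The part of endothelial cells in the Dll4 levels was not tested.

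**Figure D3:**
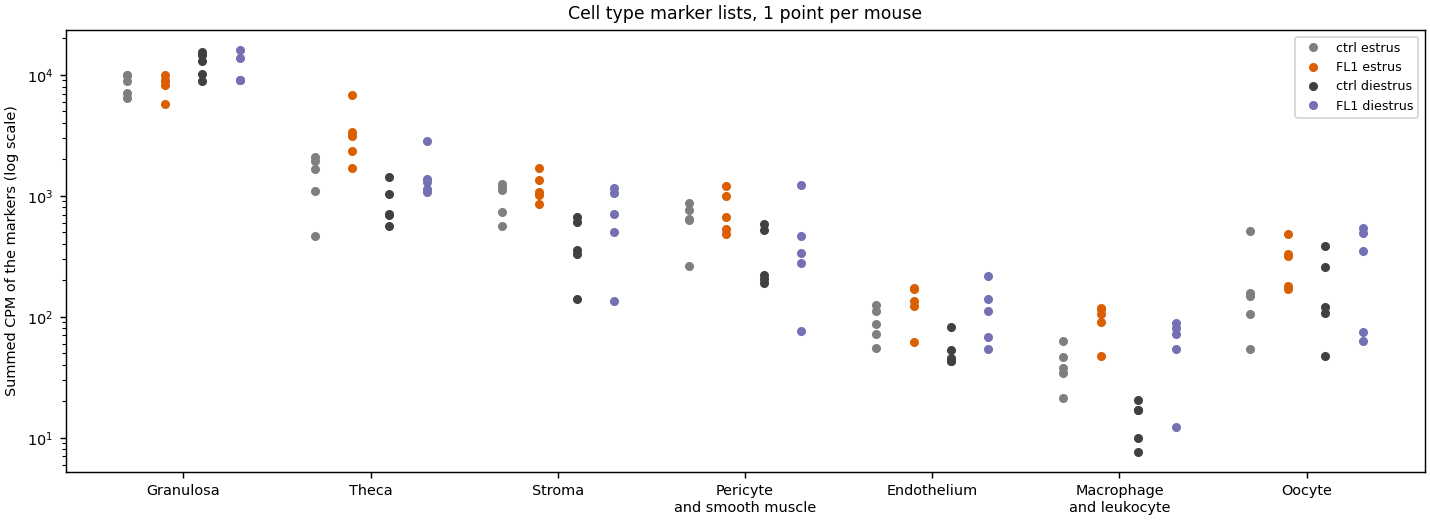
Summed level of the markers of 7 cell types in CPM (y axis, log scale) per mouse (points) in the 4 groups (colours). GC markers are highest in every mouse except replicate 2 of the FL1 mice in estrus, where theca markers (6761 CPM) exceed them (5727 CPM). Stroma, pericyte and endothelial markers are present throughout. The sum of the macrophage and leukocyte markers is between 21.1 and 63.0 CPM in ctrl and 47.2 and 117.2 CPM in FL1 mice in estrus. In diestrus it is between 7.67 and 20.6 CPM in ctrl and 12.3 and 88.1 CPM in FL1 mice, so that the lines overlap in both stages.

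The other genes of the pathway gave the setting of the 10 members. A list of 55 genes was used, with 6 further receptor and ligand genes, 10 genes of receptor proteolysis, 17 of glycosylation, endocytosis and ubiquitin transfer, 16 of the nuclear complex and its corepressors and 6 further targets and relatives. In the last group Hes2, Hes3 and Hes5 had no reads in any mouse. None of the 55 genes was called in any of the 7 comparisons with edgeR, with between 46 and 50 of the 55 tested. Before adjustment 3 had a p under 0.05 for the line in estrus, 2 for the line in diestrus, 3 for the line over both stages, 4 for the stage in ctrl mice, 3 for the stage in FL1 mice, 7 for the stage over both lines and 1 for the interaction. Of all genes tested such a p was found in 10.7%, 5.56%, 11%, 11.8%, 9.48%, 14.6% and 4.75%, in the same order. DESeq2 called 1, Dlk1 for the stage in FL1 mice, and 0 in the other comparisons. Limma-voom called Hes6 for the stage over both lines (log2 fold change -0.80, adjusted p of 0.0309). With edgeR this contrast was also called for Hes6 without FL1 diestrus replicate 1 (adjusted p of 0.0269). Spen was called in it without ctrl diestrus replicate 4 (0.97, adjusted p of 0.0134, edgeR). Dlk2 was called for the line in estrus without FL1 estrus replicate 5 (adjusted p of 0.0262, edgeR). The median log2 fold change of the 50 tested was -0.0025 between lines and 0.06 between stages, beside 0.01 and 0.02 over all genes. By role the medians between stages were 0.15 for the 10 proteolysis genes, of which 7 were positive, 0.14 for the 16 nuclear genes, of which 11 were positive, and -0.86 for the 5 receptor and ligand genes tested, of which 4 were negative.

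**Figure D4:**
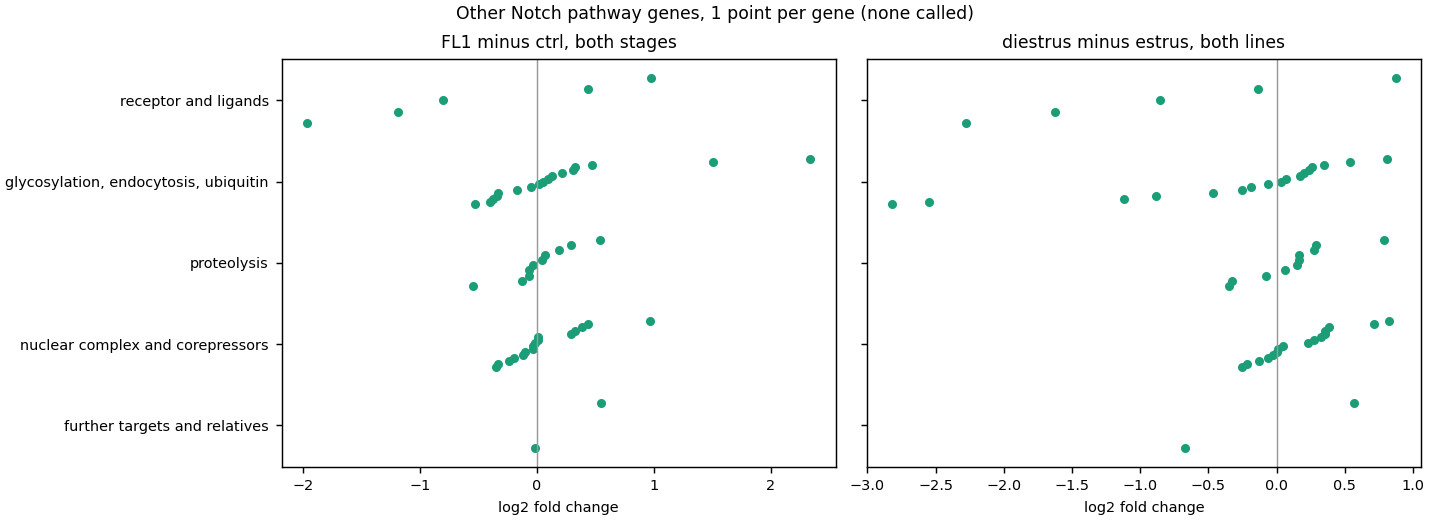
Log2 fold changes (x axes) of the other Notch pathway genes that were tested, 1 point per gene, by role (y axis), as FL1 minus ctrl over both stages (left) and diestrus minus estrus over both lines (right). Most genes lie near 0, with Neurl1a (2.34, left) as the farthest on the positive side, and none was called.

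For the comparisons reported here the gene of this list with the lowest p is given with its values. For the line in diestrus it was Maml3, a Mastermind coactivator, with 8.44 ± 3.996 CPM in ctrl mice and 21.3 ± 12.2 CPM in FL1 mice, which is 1.34 ± 0.53 on the log2 scale (adjusted p of 0.771, edgeR). For the line over both stages it was Neurl1a, a ubiquitin ligase that acts on Notch ligands, at 2.34 ± 0.99 on the log2 scale (adjusted p of 0.353, edgeR). Its mean in FL1 mice in estrus of 12.1 CPM included 1 mouse at 43.2 CPM, and the median of that group was 4.58 CPM.

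Among stage comparisons the lowest p belonged to Dlk2 in ctrl mice, Dlk1 in FL1 mice and Kat2b over both lines. Dlk1 and Dlk2 are ligand-like proteins without the domain that activates the receptor in the usual way. Dlk2 had 8.64 ± 4.44 CPM in ctrl mice in estrus and was at 0 in 4 of 5 ctrl mice in diestrus, a difference of -3.75 ± 1.45 on the log2 scale (adjusted p of 0.285, edgeR). Over fits without 1 mouse this difference was between -8.87 and -3.43. It was called without ctrl diestrus replicate 2 (-8.87, adjusted p of 0.0213, edgeR). Dlk1 had 12.0 ± 3.53 CPM in FL1 mice in estrus and 3.69 ± 1.73 CPM in diestrus, a difference of -1.71 ± 0.58 on the log2 scale (adjusted p of 0.284 with edgeR and 0.036 with DESeq2). In ctrl mice Dlk1 had 8.42 ± 7.95 CPM in estrus and 2.83 ± 3.01 CPM in diestrus. Kat2b, an acetyltransferase of the active Notch complex, had 17.9 ± 6.49 and 23.4 ± 9.50 CPM in ctrl and FL1 mice in estrus and 29.4 ± 7.22 and 38.5 ± 17.8 CPM in diestrus. Its log2 fold change between stages was 0.72 ± 0.24 with an adjusted p of 0.110 (edgeR).

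Members were also compared by their pattern over the 20 mice. For each of the 8 members that passed the filter over 20 mice, the 3 genes with the highest Pearson's r of log2 CPM among 14938 genes are given as a description without a test, since some of so many genes will always rise together over 20 mice. Hey2 was most like Rpl10 (r of 0.85), Car14 (0.82) and Gtf2e1 (0.82). After removal of the group means the r of these genes with Hey2 was 0.80, 0.62 and 0.76. Hes1 was most like Lrrn1 (0.87), Lipt1 (0.87) and Sephs2 (0.84), and Heyl most like Fam20b, Pkdcc and Ap2a1 (0.74 to 0.76). Jag1 was most like Rhpn2, Sall4 and Obox7 (all 0.83), where Sall4 and Obox7 are genes known from oocytes, and after removal of the group means its r with Sall4 was 0.92. Notch1 was most like Gfm1, Akirin1 and Malt1 (0.78 to 0.83), Notch2 most like Serpinb12, Ankrd42 and Erlin2 (0.74 to 0.80), Notch3 most like A330041J22Rik, Gm8885 and Fbxo32 (0.73 to 0.76) and Hey1 most like Pik3c2a, Arhgap44 and Slc22a5 (0.73 to 0.75). No member was among the most similar genes of another member. Between members, r over 20 mice was between -0.48 (Hes1 and Hey1) and 0.45 (Notch2 and Jag1).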

How the data were processed

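The authors sequenced 3′ libraries of mural GCs, aligned the trimmed reads with STAR to GRCm38 and deposited raw counts of reads per Ensembl gene for each mouse, without normalization. For RNA extraction the labels name TRIzol and the study's methods a column kit. Symbols and positions came from GENCODE M21 (55227 of 55487 identifiers), promoter sequences from RefSeq on GRCm38.p6. The members and lists were chosen with earlier results of these data known.

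Here the counts were normalized by TMM and tested with edgeR 4.0.16 (quasi-likelihood, R 4.3.3), after edgeR's expression filter (minimum count 10, total 15, share 0.7), with Benjamini-Hochberg adjustment over all genes and a threshold of 0.05. The line was tested in each stage, the stage in each line (10 mice each), and both effects and their interaction over 20 mice. SE and 95% intervals follow from the F statistic. Members under the filter were tested by exact permutation of log2 CPM (prior count 2, SciPy 1.17.1). Copies were sought with BLAST 2.17.0 on the last 500 bases of transcripts (90% identity over 100 bases).

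All 10 members are named, with those of 55 other pathway genes that were called in the main fits or had the lowest p of a comparison. Some genes called only under other settings are named as well. The result for 1 item is not reported here. Alternatives were DESeq2 1.42.0, limma-voom 3.58.1 with sample weights, RLE size factors, no filter, a filter on a mean count of 10, robust estimation, all samples in 1 fit, a replicate block and fits without each mouse in turn. The scripts were tested on simulated data. Replicates are different mice. Depth was between 5446576 and 8257041 counted reads per mouse, between 48.9% and 58.4% of all reads, and the limits from 3 counts cover counting error only, whereas the intervals of fold changes include the spread between mice.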

Additional observations from a re-analysis of the deposited data

Results flagged for a closer look

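In 8 of the 39 groups of 5 mice tested, the highest mouse of a member stood farther from the others than Dixon's limit at the 95% level allows, where chance alone gives about 5% of groups, and groups that are mostly at 0 meet the limit with 1 mouse above 0. Hes1 in FL1 mice in estrus had replicate 2 at 154.6 CPM (1239 reads), with the next mouse at 70.9 CPM. Without this mouse the log2 fold change of Hes1 over both stages was 0.62 and its adjusted p 0.322 (edgeR). Notch3 stood out in replicate 1 of the FL1 mice in estrus at 12.1 CPM and in replicate 4 of the ctrl mice in estrus at 2.21 CPM. Dll4 stood out in replicate 1 of the ctrl mice in estrus at 1.17 CPM and in replicate 4 of the ctrl mice in diestrus at 2.91 CPM. Lfng stood out in replicate 4 of the ctrl mice in estrus at 1.18 CPM, in replicate 2 of the ctrl mice in diestrus at 1.07 CPM and in replicate 1 of the FL1 mice in diestrus at 2.49 CPM. Apart from Hes1 and the Notch3 value of 12.1 CPM (77 reads), these levels rest on 8 to 16 reads.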

How the results depend on the processing

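Hey2 was called for the stage over both lines under all 7 other settings and in all 20 fits without 1 mouse. The count of members called changed in 2 cases: 1 for the line in estrus without FL1 estrus replicate 3 (Heyl, range 0 to 1), and 1 for the line over both stages without a filter on low counts (Hes1). The cause was not tested.

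Over all genes, the counts of calls for the line in estrus, line in diestrus, stage in ctrl, stage in FL1, interaction, line over both stages and stage over both lines were 100, 32, 175, 29, 0, 181 and 473. Counts over all genes under settings other than DESeq2 were added after seeing the data. DESeq2 gave 418, 118, 526, 257, 1, 424 and 873. Without a filter on low counts they were 373 for the line in estrus, 55 higher and 52 lower in FL1 mice in diestrus, 348 and 299 for the stage in ctrl and FL1, 6 for the interaction and 319 for the line over both stages. Limma-voom gave 130 for the stage in FL1, 286 for the line and 787 for the stage over both, and 1 fit of all samples gave 65 for the stage in FL1. Without single mice the ranges were 66 to 130, 21 to 32, 77 to 176, 13 to 178, 0 to 0, 139 to 209 and 324 to 728. The stage count in FL1 was 178 and that over both lines 728 without FL1 diestrus replicate 1.

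The replicate numbers did not pair the mice, since r between deviations of mice with the same number was between -0.17 and 0.12 and above 0.1 in 1 of 30 pairs. With a replicate block the counts were 58 for the line in estrus and 13 for the line in diestrus, and the number of members called did not change.

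Of 819 refits of 35 fold changes, 778 kept their direction and side of the threshold, 36 changed sign and 5 were newly called. All sign changes were in uncalled values. Limma-voom turned Notch3 between lines to -0.0934, Hes1 between stages to 0.00589 and the Hes1 interaction to -0.0197. The replicate block turned Hes1 between stages to 0.00678 and Heyl between lines in diestrus to -0.0918. Without single mice the ranges that crossed 0 were -0.58 to 0.033 for Notch1, -0.00012 to 0.20 for Notch2 and -0.40 to 0.11 for Hey1 between lines, -0.10 to 0.18 for Hes1, -0.31 to 0.19 for Hey1 and -0.25 to 0.0757 for Heyl between stages, -0.22 to 0.45 for the Hes1 interaction and -0.36 to 0.18 for Heyl between lines in diestrus. Depth limits Dll4, Lfng and Notch3, which had 3 reads or fewer in many mice, and Notch3 also varied widely between mice, with a line effect from 0.21 to 2.25 over fits without single mice.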
